A study of Homo sapiens with 4 samples.

Results

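The AP-1 transcription factor genes are 10 genes whose products pair with each other to form activator protein 1 or related dimers: JUN, JUNB, JUND, FOS, FOSB, FOSL1, FOSL2, ATF3, BATF3 and MAFF. They were taken by gene symbol from a table of raw read counts for 58735 genes, which holds all 10. U2OS, an established line of human osteosarcoma cells, was profiled by RNA-seq in 2 control libraries labelled shControl and 2 libraries labelled shGREM1, in which the series reports a knockdown of GREM1. The GREM1 product, gremlin 1, is secreted and blocks bone morphogenetic proteins. The labels name no hairpin sequence, vector, time point, clone or further treatment, and they leave unsaid whether the replicates were grown separately. P-values therefore reflect only how far these libraries differ, which may be technical.

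AP-1 proteins carry a basic region that contacts DNA and a leucine zipper that holds 2 partners together. JUN proteins can pair with each other, whereas FOS proteins need a JUN partner. The dimers bind the sequence TGANTCA or its relative TGACGTCA. Many of these genes are immediate early genes, switched on within minutes when growth factors, cytokines or stress activate the MAP kinases. In bone, forced expression of Fos causes osteosarcoma in mice, and FOS and FOSB are rearranged in some human bone-forming tumours.

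Of the 10 genes, 3 were lower in shGREM1 and 0 were higher, with 0 higher also at an unadjusted p below 0.05 in edgeR and with DESeq2 and limma-voom. The 3 were JUNB, FOSL1 and MAFF, each between 35.5% and 42.9% below its control level. JUN, JUND and FOSL2, the AP-1 genes with the most reads, did not pass the test, nor did FOS, FOSB, ATF3 and BATF3. A gene is said to have risen or fallen at a Benjamini-Hochberg adjusted p below 0.05 in edgeR's quasi-likelihood test over all genes kept after a filter on low counts. That filter kept 18442 genes, among them all 10 AP-1 genes. Levels are in CPM, counts scaled by library size with TMM. Of the kept genes, 4.12% were lower and 3.57% higher in shGREM1, so 3 lower genes of 10 (30.0%) stand beside a background of 4.12%, or 7.69% for a call in either direction. At an unadjusted p below 0.05 in edgeR, 2050 of the 18442 kept genes were higher and 2226 lower. Against that share, 0 higher genes of 10 does not stand out. With upper-quartile scaling the split of all called genes turned from 659 higher and 759 lower to 793 higher and 631 lower, while the same 3 AP-1 genes fell. The median log2 fold change of the 10 was -0.13, beside 0.00491 for all kept genes.

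The promoter sequences of 4 of the genes are shown because they put a JUN gene that fell (JUNB) beside JUN and JUND, which did not pass, and add MAFF, which fell. Each is the 250 bases before the RefSeq start of the gene on GRCh38.p14, 5′ to 3′ on the gene's strand. For JUN and MAFF the gene as counted starts further upstream, so the windows shown lie inside it. Capitals mark the AP-1 and CRE-type motifs TGANTCA, TGACGTCA and TGACATCA, searched on both strands. They also mark TGACG, the start of TGACGTCA but not part of TGANTCA or TGACATCA, on both strands. TATAAA was searched on the gene's strand.
JUNB (chr19:12791236-12791485, plus strand): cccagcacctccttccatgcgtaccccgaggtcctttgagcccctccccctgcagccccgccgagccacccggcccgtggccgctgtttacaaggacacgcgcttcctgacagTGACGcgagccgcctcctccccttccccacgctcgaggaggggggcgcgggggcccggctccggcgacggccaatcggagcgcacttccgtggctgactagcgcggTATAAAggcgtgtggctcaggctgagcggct
MAFF (chr22:38201744-38201993, plus strand, first of 2 starts): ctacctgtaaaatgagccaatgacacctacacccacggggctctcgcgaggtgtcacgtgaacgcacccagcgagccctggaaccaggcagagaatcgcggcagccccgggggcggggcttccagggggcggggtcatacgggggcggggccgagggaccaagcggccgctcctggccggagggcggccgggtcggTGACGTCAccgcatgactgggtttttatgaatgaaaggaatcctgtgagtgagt
JUN (chr1:58784048-58784297, minus strand): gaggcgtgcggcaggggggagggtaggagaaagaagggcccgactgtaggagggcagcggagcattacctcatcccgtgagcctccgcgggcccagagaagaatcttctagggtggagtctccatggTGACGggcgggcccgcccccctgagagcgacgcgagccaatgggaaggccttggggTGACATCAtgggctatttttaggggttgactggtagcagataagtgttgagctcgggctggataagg
JUND (chr19:18281623-18281872, minus strand): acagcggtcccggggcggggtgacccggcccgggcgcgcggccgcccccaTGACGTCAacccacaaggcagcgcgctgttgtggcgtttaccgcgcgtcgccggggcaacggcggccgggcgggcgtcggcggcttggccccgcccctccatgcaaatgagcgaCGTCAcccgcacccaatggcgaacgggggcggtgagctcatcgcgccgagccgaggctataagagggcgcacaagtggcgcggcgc

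RefSeq windows matched 8 of the 10 genes, FOSL1 and BATF3 being the others, and ATF3 and MAFF had 2 starts each. None of the 10 windows held TGANTCA, which is in 6.57% of 35116 windows of this length. TGACGTCA was present in JUND, 200 bases before the start, and in MAFF, 54 bases before the start, and is in 1.65% of all windows. Because that motif reads the same on both strands, it also holds 2 overlapping copies of TGACG. JUN held TGACATCA 67 bases before its start, and so did the first ATF3 start at 123 bases, beside 2.37% of all windows. TGACG was found at least once in FOS, FOSB, FOSL2, JUN, JUNB, JUND and the first MAFF start, beside 21.2% of all windows. JUNB carried it 137 bases before its start and TATAAA at 31 bases. TATAAA was also near the start of FOS (33 bases) and FOSB (30 bases), beside 6.80% of all windows. The CArG box, the site of serum response factor, was in none of the 10 windows and in 1.16% of all windows. The matches describe letters only. Sequence outside the windows was not searched, so absence from a window does not show that a gene, FOS included, lacks the motif.

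Read totals ran from 15492826 to 16353015 counts a library, and 28109 to 29097 genes had at least 1 count. For GREM1 the controls held 2 counts (shControl-1) and 0 counts (shControl-2), and each shGREM1 library held 1. The 0 allows up to 3 counts, or 0.194 CPM, and whether the groups differ in GREM1 was not detectable here. The differences described here are therefore between libraries with these labels and could not be tied to the loss of GREM1. Of 10 mesenchymal and bone markers 9 were kept, with summed levels of 2175 and 2098 CPM in the controls against 2895 and 2730 CPM in the shGREM1 pair. Most of that gap came from SPARC (869 and 876 against 1365 and 1128 CPM) and COL1A1 (615 and 577 against 764 and 926 CPM). ALPL and CDH11 went the other way, at log2 fold changes of -0.98 and -0.15. COL1A2 was at no more than 1.22 CPM and TWIST1 had at most 1 count. Epithelial markers, mostly CLDN4, summed to 107 and 121 CPM in the controls and an overlapping 101 and 155 CPM in the shGREM1 pair. EPCAM went from 5.18 and 6.02 CPM to 11.3 and 10.9 CPM. Of 6 blood markers 1 was kept, CD68 and HBB had 0 counts in every library, and the 6 summed to at most 1.55 CPM. Of 5 endothelial markers 4 were kept, and the 5 summed to between 12.6 and 18.5 CPM. The part of these differences in single markers in the AP-1 results was not tested. In bulk RNA, fewer cells with a transcript and less of it per cell cannot be told apart.

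**Figure D1:**
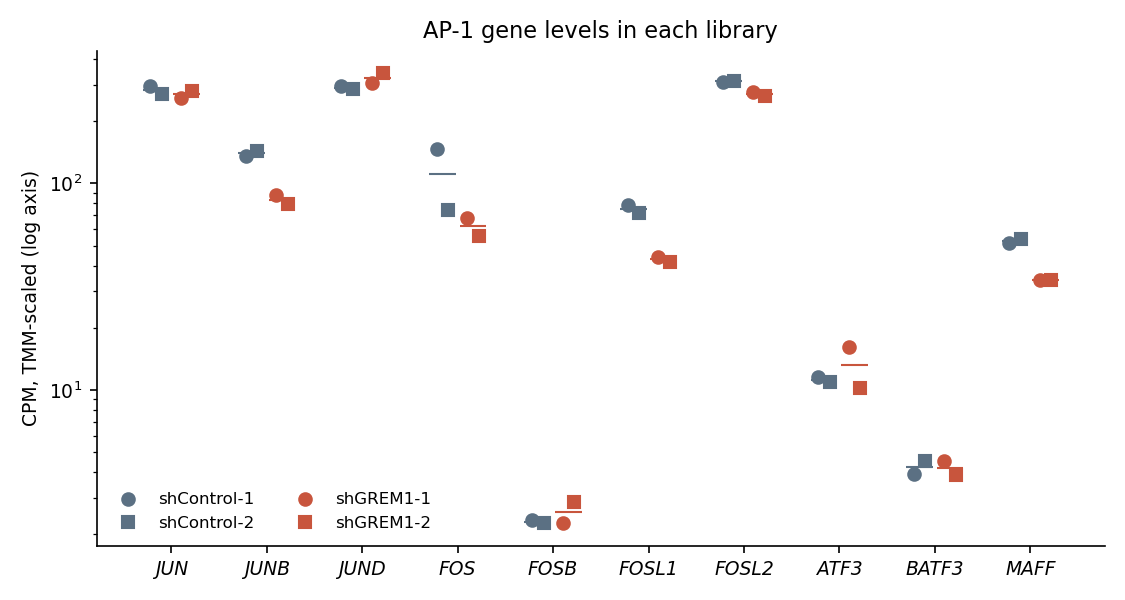
CPM of the 10 AP-1 genes on a log axis, with 1 point per library (circles for replicate 1, squares for replicate 2) and a line at each group's mean. JUNB, FOSL1 and MAFF have both shGREM1 libraries well below both shControl libraries, while the shControl libraries of FOS stand apart at 147 and 74.5 CPM.

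The JUN genes encode the partners that every AP-1 dimer of the FOS type needs. Each of the 3 has a single exon in GENCODE 29, while the other AP-1 genes have between 3 and 7 separate exon stretches. JUNB (ENSG00000171223, chromosome 19, 12791496 to 12793315, plus strand, GRCh38) encodes a JUN protein that activates fewer targets than JUN when it pairs with itself. It had 2097 and 2220 counts in shControl, or 136 and 144 CPM, and 1438 and 1275 counts in shGREM1, or 87.7 and 79.3 CPM. Both knockdown libraries were below both control libraries, and the gap between the groups was several times the difference within either. The log2 fold change was -0.74 ± 0.11 (SE; edgeR adjusted p = 8.89e-04), a level 40.3% lower in shGREM1.

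JUNB shares 259 bases, 14.2% of its exon bases, with exons of HOOK2 on the opposite strand. The strand setting of the counting is not given, so reads there may not be separable. HOOK2, which encodes a linker protein of microtubules, had 51.5 and 50.1 CPM in the controls against 52.0 and 59.8 CPM in the shGREM1 pair (0.14 ± 0.12 as log2 fold change and its SE, adjusted p = 0.532 in edgeR). The overlapping gene thus did not pass, and its point estimate had the opposite sign to that of JUNB.

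JUN (ENSG00000177606, chromosome 1, 58780788 to 58784327, minus strand) encodes the strongest activator of the family. It had 296 and 272 CPM in the controls against 260 and 282 CPM in the shGREM1 pair. The groups overlapped, with shGREM1-2 above shControl-2. Its log2 fold change was -0.07, with a 95% interval from -0.30 to 0.16 (edgeR adjusted p = 0.761).

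JUND (ENSG00000130522, chromosome 19, 18279760 to 18281622, minus strand) encodes a JUN protein that most cells make constantly. It had 295 and 288 CPM in the controls against 307 and 342 CPM in the shGREM1 pair. Both knockdown libraries were above both controls, by little, and JUND was the 1 AP-1 gene of 10 with this arrangement, which 27.0% of all kept genes showed. The log2 fold change was 0.15, with a 95% interval from -0.07 to 0.38 (edgeR adjusted p = 0.427).

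Levels per kilobase of merged exons allow a rough comparison of genes. Where a gene has several exon stretches, the merged exons can be longer than the transcript in use, which would lower its value. JUND had the highest level of the 10 genes per kilobase in every library. It was at 156 ± 2.83 CPM per kilobase in shControl and 174 ± 13.6 in shGREM1 (SD, n = 2 each). JUN followed at 80.2 ± 4.95 and 76.5 ± 4.37 CPM per kilobase. JUNB was next to it in shControl, at 76.8 ± 3.10, where the 2 genes did not differ beyond the spread between libraries. In shGREM1 the JUNB level was 45.9 ± 3.28 CPM per kilobase, below JUN in both libraries. The ratio of JUNB to JUN was 0.891 and 1.03 in shControl and 0.657 and 0.547 in shGREM1.

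Within the JUN genes, JUNB made up 23.6% and 25.5% of the summed level per kilobase in the shControl libraries and 16.8% and 14.2% in the shGREM1 libraries. JUND held 49.8% in shControl-2 and about the same in shControl-1, against 57.5% and 59.9% in the shGREM1 libraries. The share of JUN stayed between 24.7% and 26.4% in all 4 libraries. The make-up of the JUN genes thus had more JUND and less JUNB in both knockdown libraries, at a summed level of 317 and 310 CPM per kilobase in shControl and 286 and 307 in shGREM1. These shares carry no test, since an exact two-sided permutation test of 2 libraries against 2 cannot give a p below 0.333.

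**Figure D2:**
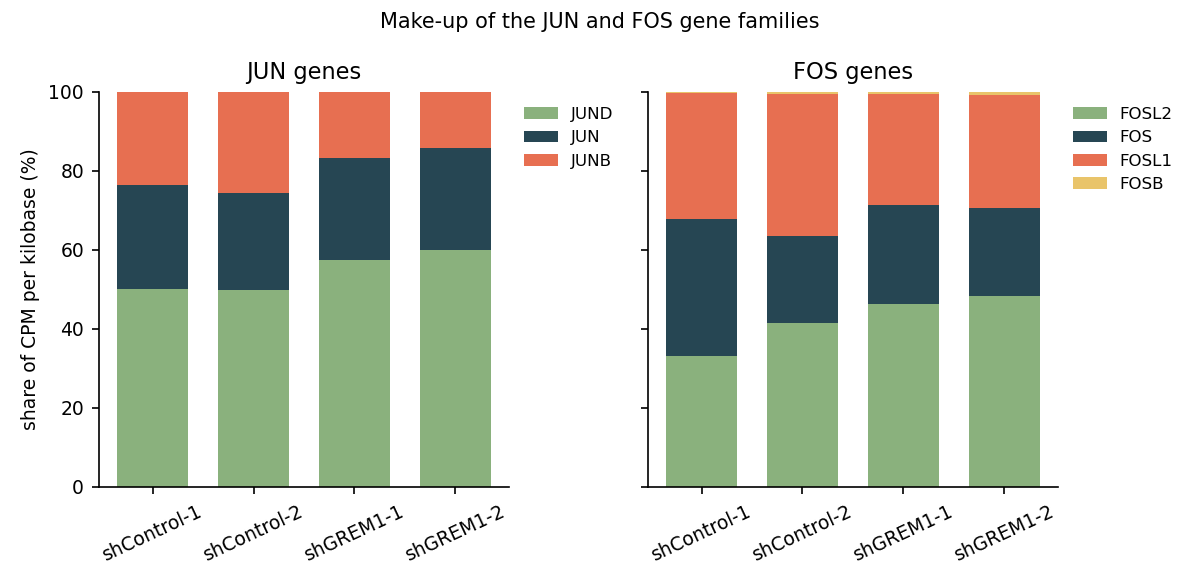
Share of each gene in the summed CPM per kilobase of the JUN genes (left) and the FOS genes (right), as stacked bars of percent for each of the 4 libraries. JUNB takes 23.6% and 25.5% of the JUN genes in shControl against 16.8% and 14.2% in shGREM1, and FOSL1 takes 31.9% and 36.1% of the FOS genes against 28.0% and 28.7%.

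The FOS genes encode proteins that bind DNA only with a partner. FOSL1 (ENSG00000175592, chromosome 11, 65892049 to 65900573, minus strand) encodes FRA-1, which lacks the activation domain of FOS and is often abundant in invasive tumour cells. It had 1215 and 1106 counts in shControl, or 78.7 and 71.6 CPM, and 725 and 670 counts in shGREM1, or 44.2 and 41.7 CPM. The groups did not overlap, and the libraries within each group lay close together. The log2 fold change was -0.81 ± 0.12 (SE; edgeR adjusted p = 7.50e-04), a level 42.9% lower in shGREM1 and the largest fall among the 3 AP-1 genes that passed.

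FOSL2 (ENSG00000075426, chromosome 2, 28392448 to 28417312, plus strand) encodes the related FRA-2, which acts in bone and cartilage development. It had 311 and 313 CPM in the controls against 277 and 266 CPM in the shGREM1 pair. Both knockdown libraries were lower, by 12.9% on average, and the log2 fold change of -0.20 had a 95% interval from -0.42 to 0.02 (edgeR adjusted p = 0.270). The interval thus reaches from a fall smaller than the estimate for FOSL1 to a slight rise. The ratio of FOSL1 to FOSL2 per kilobase was 0.960 and 0.867 in shControl and 0.605 and 0.593 in shGREM1, lower in both knockdown libraries than in either control. The antisense FLJ31356 and the intronic AC104695.3 lie within the FOSL2 locus without sharing exon bases with it, and neither exceeded 2.59 CPM in any library.

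FOS (ENSG00000170345, chromosome 14, 75278774 to 75282230, plus strand), the classical immediate early gene of the family, had 2262 and 1150 counts in shControl, or 147 and 74.5 CPM. In shGREM1 it had 1121 and 891 counts, or 68.4 and 55.4 CPM. Both knockdown libraries were below both controls, but shControl-1 had 1.97 times the level of shControl-2, and shControl-2 lay close to shGREM1-1. The log2 fold change of -0.84 had a 95% interval from -2.26 to 0.59 and did not pass (edgeR adjusted p = 0.405). Its point estimate was thus as large as that of FOSL1, with an SE of 0.43 against 0.12. Without shControl-1 the log2 fold change was -0.27, and without shControl-2 it was -1.25. Each of these fits leaves 1 control library, so its spread rests on the shGREM1 pair alone.

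FOSB (ENSG00000125740, chromosome 19, 45467995 to 45475179, plus strand), known from neurons for a long-lived splice form, was the lowest of the 10 per kilobase. Its 36 and 35 counts in the control pair and 37 and 46 counts in the shGREM1 pair amount to between 2.26 and 2.86 CPM. The groups overlapped, and the log2 fold change of 0.15 had a 95% interval from -0.60 to 0.91 (edgeR adjusted p = 0.849). At this depth neither a moderate rise nor a moderate fall of FOSB was detectable. The DNA repair gene ERCC1 overlaps its locus on the opposite strand without sharing exon bases, and fell from 127 and 133 CPM to 96.1 and 94.0 CPM (edgeR adjusted p = 0.0165), a call lost without shControl-1 (0.0532) or shControl-2 (0.0871).

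In shControl, FOSL2 (43.6 ± 0.248), FOSL1 (39.8 ± 2.64) and FOS (34.1 ± 15.7) were at similar levels per kilobase (SD, n = 2 each), and FOS did not differ from either beyond its own spread. In shGREM1 FOSL2 led at 38.0 ± 1.09 CPM per kilobase, ahead of FOSL1 at 22.8 ± 0.961 and FOS at 19.1 ± 2.83. The share of FOSL2 in the FOS genes was 33.2% and 41.6% in shControl and 46.3% and 48.4% in shGREM1. The share of FOSL1 was 31.9% and 36.1% in shControl and 28.0% and 28.7% in shGREM1. The summed level of the FOS genes was 131 and 105 CPM per kilobase in shControl and 83.7 and 76.9 in shGREM1, lower in both knockdown libraries. Set against the summed JUN genes, it gave a ratio of 0.413 and 0.339 in shControl and 0.293 and 0.251 in shGREM1. Per kilobase of merged exons, the JUN genes thus exceeded the FOS genes in all 4 libraries, the more so in shGREM1. This is a description with no test, and the size of the excess depends on the lengths used.

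The remaining members pair with JUN proteins, with each other or with other basic leucine zipper proteins. MAFF (ENSG00000185022, chromosome 22, 38200767 to 38216511, plus strand) encodes a small MAF protein, which has no activation domain and lends its DNA-binding part to NFE2-type partners. It had 796 and 834 counts in shControl, or 51.6 and 54.0 CPM, and 558 and 548 counts in shGREM1, or 34.0 and 34.1 CPM. The groups did not overlap and both were tight. The log2 fold change was -0.63 ± 0.12 (SE; edgeR adjusted p = 0.00428), a level 35.5% lower in shGREM1. PLA2G6 lies across the locus on the opposite strand and shares no exon bases with MAFF, and it did not pass (0.25 as log2 fold change, adjusted p = 0.243 in edgeR).

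ATF3 (ENSG00000162772, chromosome 1, 212565334 to 212620777, plus strand), a stress-induced gene whose product mostly represses as a homodimer, had 11.5 and 10.9 CPM in the controls against 16.2 and 10.2 CPM in the shGREM1 pair. The knockdown libraries lay on both sides of the controls. The log2 fold change of 0.24 had a 95% interval from -0.22 to 0.71 (edgeR adjusted p = 0.557), and it was -0.13 without shGREM1-1. BATF3 (ENSG00000123685, chromosome 1, 212686418 to 212699985, minus strand), known for its need in a class of dendritic cells in mice, lies 65.6 kb from ATF3. The controls held 60 and 70 counts of it and the shGREM1 pair 74 and 62, between 3.86 and 4.53 CPM. Its groups overlapped, with a log2 fold change of -0.01 and a 95% interval from -0.61 to 0.60 (edgeR adjusted p = 0.993).

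**Figure D3:**
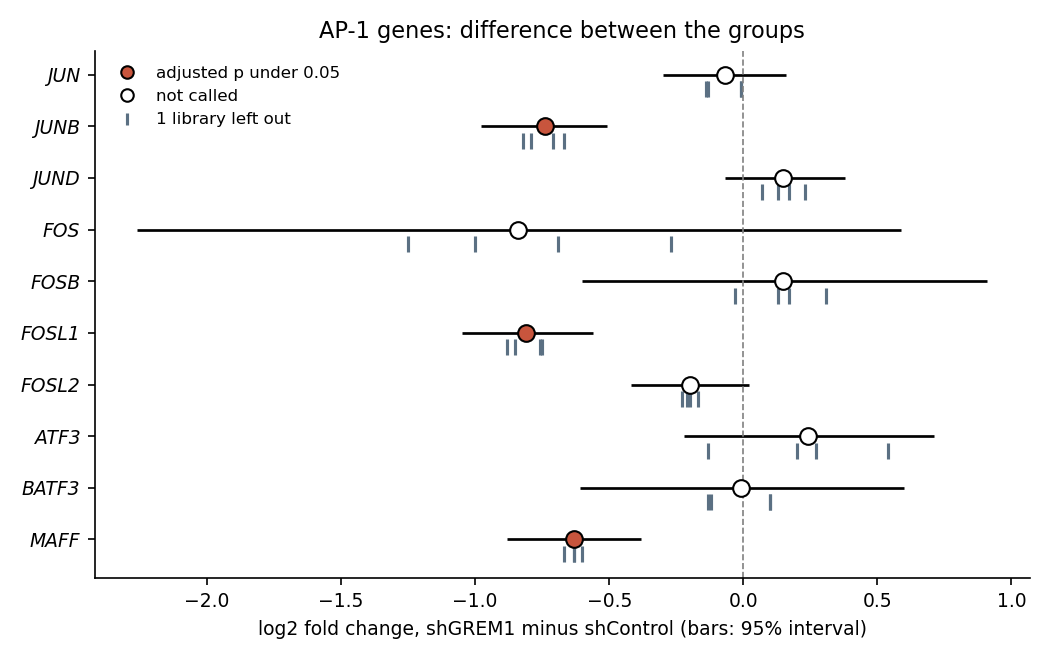
Log2 fold change of each AP-1 gene, shGREM1 minus shControl, with its 95% interval from edgeR (large points, filled where the adjusted p is below 0.05) and the 4 values with 1 library left out (ticks). The intervals of JUNB, FOSL1 and MAFF lie below 0, while that of FOS reaches from -2.26 to 0.59.

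Groups did not overlap for 6 of the 10 genes, with FOS, FOSL1, FOSL2, JUNB and MAFF lower and JUND higher in shGREM1. Among all kept genes, 26.6% were lower and 27.0% higher without overlap. JUNB, FOSL1 and MAFF passed with each library left out in turn, with log2 fold changes from -0.82 to -0.67, from -0.88 to -0.75 and from -0.67 to -0.60. None of the 3 passed a test against a change of 1.5-fold (edgeR's glmTreat, adjusted p = 0.757, 0.471 and 1). The falls are thus distinguishable from 0 but not from 1.5-fold.

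Other basic leucine zipper genes went both ways. Of 36 listed partners and relatives 32 were kept, with a median log2 fold change of -0.03. Of these, 3 fell (9.38%, beside 4.12% of all kept genes), 2 rose (6.25%, beside 3.57%) and 27 did not pass. CEBPB, a factor of the acute-phase and inflammatory response, had 403 and 474 CPM in the controls against 291 and 273 CPM in the shGREM1 pair (-0.64 ± 0.11 as log2 fold change and its SE, adjusted p = 0.00309 in edgeR). The small MAF gene MAFK fell by 0.38 on the log2 scale (edgeR adjusted p = 0.0448), as did NFE2L2 by 0.45 (0.0407), the oxidative stress factor that pairs with small MAF proteins. The third small MAF gene, MAFG, had 127 and 130 CPM against 101 and 104 CPM and did not pass (edgeR adjusted p = 0.0743). ATF6, a membrane-bound sensor of endoplasmic reticulum stress, rose by 0.54 (0.0179), and ATF1, a CREB relative, by 0.42 (0.0434). ATF4 (log2 fold change -0.11) and NFE2L1 (0.23) did not pass.

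Apart from CEBPB, these calls were lost in at least 1 fit with a library left out, while the direction stayed the same. Without shControl-1 the log2 fold change was -0.28 for MAFK, -0.51 for NFE2L2, 0.44 for ATF6 and 0.39 for ATF1. Such fits have 1 library in a group, so a lost call does not show that the difference came from the library left out. Leaving out shControl-1 gave adjusted p-values in edgeR of 0.375 for MAFK, 0.0675 for NFE2L2, 0.154 for ATF6 and 0.238 for ATF1. Without shControl-2 it was 0.178 for NFE2L2 and 0.135 for ATF1, and without shGREM1-2 it was 0.177 for NFE2L2 and 0.126 for ATF1. With all 4 libraries, MAFK and NFE2L2 also lost their calls with upper-quartile scaling (0.0605 and 0.0552) and without robust estimation (0.0585 and 0.0587), MAFK with total counts (0.0545), and ATF1 without robust estimation (0.0523) and with DESeq2 (0.087). Of the list, 0 rose and 1 fell without shControl-1, 1 rose without shControl-2 or without shGREM1-2, and 5 fell without shGREM1-1. The deposited table marks 48 genes, all 10 AP-1 genes among them, as bZIP factors. Of its 34 kept bZIP genes outside the AP-1 set, 2 fell (5.88%) and 3 rose (8.82%), with a median log2 fold change of 0.01.

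Other immediate early genes were called lower more often than higher. Of 28 listed genes 27 were kept, with a median log2 fold change of -0.19. Of these, 5 fell (18.5%, beside 4.12% of all kept genes), 0 rose (beside 3.57%) and 22 did not pass. At an unadjusted p below 0.05 in edgeR 1 was higher, beside 2050 of the 18442 kept genes. DESeq2 and limma-voom called 0 of the list higher. ARC, best known from synapses, had 79.8 and 76.5 CPM in the controls against 31.5 and 43.5 CPM in the shGREM1 pair (-1.06 ± 0.14 as log2 fold change and its SE, adjusted p = 5.48e-04 in edgeR). TRIB1, a pseudokinase that directs the degradation of C/EBP proteins, had 88.3 and 115 CPM against 50.3 and 57.3 CPM (-0.92 ± 0.13, adjusted p = 9.27e-04). NFKBIZ (-0.71), a nuclear cofactor of NF-kB, IER3 (-0.49) and CSRNP1 (-0.39) fell as well. IER5, CYR61 and CTGF, the most abundant of the list, did not pass at log2 fold changes of -0.19, -0.44 and -0.50. CTGF was called lower with DESeq2 (adjusted p = 0.0259) and without a count filter (0.000237 in edgeR), and in edgeR without shControl-2 (0.023) or shGREM1-1 (9.4e-08). CYR61 was called lower in edgeR without a count filter (0.00177) and without shControl-2 (0.00907), shGREM1-1 (0.0268) or shGREM1-2 (0.000395).

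In CYR61 and CTGF, as in FOS but by a smaller factor, shControl-1 was above shControl-2, at 620 against 436 CPM and at 657 against 505 CPM. Other named genes of the list went both ways. ARC and IER5 were slightly higher in shControl-1. TRIB1 (88.3 against 115 CPM), NFKBIZ (63.7 against 87.8 CPM), IER3 (288 against 324 CPM) and CSRNP1 (67.9 against 71.7 CPM) were lower there. EGR1, a zinc finger factor of the same list named after its values were seen, was also lower in shControl-1, at 238 CPM against 289 CPM in shControl-2. Leaving out shControl-2 ended the calls of IER3 and NFKBIZ (adjusted p = 0.142 and 0.0827 in edgeR), and CSRNP1 did not pass without any 1 of the 4 libraries (0.0535 to 0.201), nor with DESeq2 (0.068), upper-quartile scaling (0.061), total counts (0.0556) or a fit that was not robust (0.054). The number of fallen genes was 4 without either shControl library and 8 without either shGREM1 library, and 1 gene rose without shGREM1-1.

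Genes that act upstream of AP-1 mostly did not pass. Of 34 kinases and FOS promoter factors, all kept, 2 fell (5.88%), 1 rose (2.94%) and 31 did not pass, with a median log2 fold change of -0.02. These shares are near those of all kept genes, 4.12% lower and 3.57% higher. MAP3K5, the stress kinase ASK1, had 22.5 and 22.0 CPM in the controls against 9.58 and 14.2 CPM in the shGREM1 pair (-0.90 ± 0.19, edgeR adjusted p = 0.00949). MAP2K3, an activator of p38 kinases, had 121 CPM in both controls and 69.5 and 91.4 CPM in shGREM1 (-0.59 ± 0.13, adjusted p = 0.0119). Of the list, 0 genes rose when either shControl library was left out and 2 when either shGREM1 library was. The MAP kinase kinase MAP2K2 (-0.01), the ETS factor ELK3 (-0.25) and the JNK scaffold MAPK8IP3 (0.18) did not pass.

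Among 17 coactivators and turnover factors of AP-1 proteins, 0 rose and 0 fell in edgeR, DESeq2 and limma-voom, with a median log2 fold change of 0.01. In edgeR 3.57% of all kept genes rose and 4.12% fell. At an unadjusted p below 0.05 in edgeR 1 was higher and 2 were lower, beside 2050 higher and 2226 lower of the 18442 kept genes. NACA (-0.13), CREBBP (0.15), a histone acetyltransferase, and TRIP6 (0.01) had the most reads among them. Without shGREM1-2, 1 gene of this list fell.

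Genes known as AP-1 targets were more often lower. Of 39 listed genes 34 were kept, with a median log2 fold change of -0.69. Of the 34, 13 fell (38.2%, beside 4.12% of all kept genes), 2 rose (5.88%, beside 3.57%) and 19 did not pass. Many of these genes, the cytokines above all, also answer to NF-kB, and several were known to be lower in these libraries when the list was drawn up, so the count is no independent evidence about AP-1. CCND1, the cyclin D1 gene of G1 phase, had 646 and 617 CPM in the controls against 290 and 313 CPM in the shGREM1 pair (-1.07 ± 0.11 as log2 fold change and its SE, adjusted p = 3.46e-05 in edgeR). ITGA2, a collagen receptor subunit, had 321 and 459 CPM against 127 and 118 CPM (-1.67 ± 0.16, adjusted p = 1.67e-04). The metallothionein gene MT2A had 1123 and 940 CPM against 506 and 453 CPM (-1.10 ± 0.12, adjusted p = 7.30e-05), and its family members have similar sequences, so its value is uncertain. In each of these 3 genes both knockdown libraries lay below both controls. HMOX1, the haem-degrading enzyme, fell by 0.93, and the cytokine genes CSF2 and IL1B each fell by 2.77.

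CCL2, a monocyte chemokine, went the other way, at 167 and 146 CPM against 242 and 373 CPM (0.98 as log2 fold change, adjusted p = 0.0436 in edgeR), as did SPP1, osteopontin, at 2.66 and 1.55 CPM against 6.89 and 4.73 CPM (1.46, adjusted p = 0.0164). The call of CCL2 was lost on leaving out shControl-1 (adjusted p = 0.156 in edgeR) or shControl-2 (0.173) and with limma-voom (0.0664), that of SPP1 without shControl-2 (0.102), and that of IL1B with limma-voom (0.0705). The protease inhibitor TIMP1 (-0.46), fibronectin FN1 (-0.05) and vimentin VIM (0.10), the most abundant of the list that were not called, did not pass. TIMP1 was called lower in edgeR without a count filter (adjusted p = 0.0011) and without shGREM1-2 (3.16e-08). Without shGREM1-1 the list had 21 falls, without shControl-1 it had 1 rise and without shControl-2 it had 0.

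**Figure D4:**
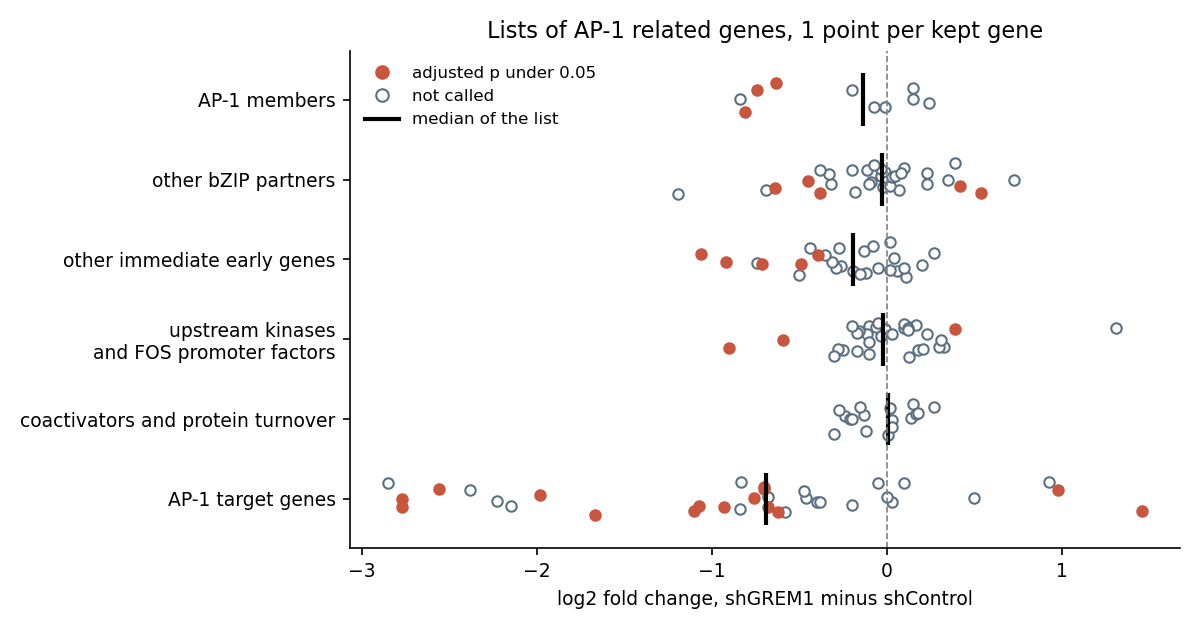
Log2 fold change, shGREM1 minus shControl, of each kept gene in 6 lists, with 1 point per gene, filled where the edgeR adjusted p is below 0.05, and a bar at the median of each list. The AP-1 target genes have their median at -0.69, the AP-1 genes at -0.13 and the coactivators at 0.01.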

How the data were processed

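The authors deposited unnormalized read counts for each gene in 4 columns, all used. Columns with the prefix NC were taken as shControl and those with SHG1 as shGREM1, the last digit giving the replicate. Per the submitters' processing notes, HISAT2 2.0.5, StringTie 1.3.3b, DESeq2 and the mouse build mm10 were used, in roles not given. The listed genes are human, however, and all 58735 match GENCODE 29 (GRCh38) in identifier, start, end, strand and symbol. What program counted the reads, and with which strand option, is not given in the sources. The deposited gene length, other than a count, is in bases and equals the merged exons for all 10 AP-1 genes.

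The test was run with edgeR 4.0.16 (R 4.3.3): filterByExpr (minimum count 10, minimum total 15), TMM scaling (factors 0.987 to 1.01), a robust quasi-likelihood fit on the group alone over all 4 libraries, and Benjamini-Hochberg adjustment over 18442 genes. The SE is the log2 fold change divided by the square root of its F statistic. CPM use TMM-scaled library sizes, and CPM per kilobase divide them by gene length. The biological coefficient of variation was 11.4%. The fit was tested on simulated data.

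Alternatives were other scalings (relative log expression, upper-quartile, total counts), no filter, a mean CPM of at least 5, DESeq2 1.42.0, limma-voom (limma 3.58.1), a non-robust fit, only protein-coding genes, glmTreat against 1.5-fold, a block for the replicate number, and fits lacking 1 library each. In these the single remaining library takes its spread from the other pair, so a call gained there is not evidence of a change. All AP-1 genes and genes overlapping them were named, with the called genes of each other list (all if 6 or fewer in a direction, otherwise the 6 with the largest change at a mean CPM of at least 5) and the 3 most abundant not called. One gene that this rule names is not reported here. The genes, lists and tests were chosen with earlier results of these data known. Promoter windows are from RefSeq (GRCh38.p14). Plots used matplotlib 3.10.9 (Python 3.11.15).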

Additional observations from a re-analysis of the deposited data

How the results depend on the processing

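JUNB, FOSL1 and MAFF were the lower AP-1 genes in edgeR and passed in 14 of 15 alternatives, glmTreat against 1.5-fold being the exception, with 0 lower. The count was 3 to 4 with 1 library left out. With the replicate number as a block it was 4, FOS being the addition (log2 fold change -0.77, adjusted p = 3.66e-08). Over all kept genes, the differences between replicates 1 and 2 in shControl and in shGREM1 had a correlation of -0.00703. A single value over all genes cannot show whether same-numbered libraries were paired in some of them. FOS was higher in replicate 1 of both groups, at 147 against 74.5 CPM and at 68.4 against 55.4 CPM. The block gave 1101 higher and 1273 lower genes in all, 5 lower bZIP partners, 8 lower immediate early genes and 23 lower targets. Against 1.5-fold there were 37 higher and 61 lower genes, 4 lower targets, 0 higher targets, and 0 in either direction among bZIP partners, immediate early genes and kinases. Without a count filter 1142 genes and 20 targets were lower. Without robust estimation 1 bZIP partner was higher and 1 lower. With DESeq2 1 was higher, and with upper-quartile scaling 1 was lower. A mean CPM of at least 5, which leaves out FOSB and BATF3, and limma-voom each gave 1 higher target.

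With 1 library left out, higher genes numbered 266 to 998 and lower genes 382 to 1112. Higher and lower counts were 0 to 2 and 1 to 5 for bZIP partners, 0 to 1 and 4 to 8 for immediate early genes, and 0 to 3 and 13 to 21 for targets. Kinases had 0 to 2 higher, and coactivators 0 to 1 lower. The cause of these shifts was not tested.

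Reversed signs occurred only in genes that were not called. BATF3 was at 0.02 with upper-quartile scaling, 0.01 with total counts, 0.01 with protein-coding genes only and 0.10 without shControl-2 or shGREM1-2. MAP2K2 was at 0.02, 0.01, 0.00 (mean CPM of at least 5), 0.01, 0.04 (without shControl-1) and 0.07 (without shGREM1-2). With 1 library left out, values ran from -0.13 (without shGREM1-1) to 0.54 for ATF3, -0.03 (without shGREM1-2) to 0.31 for FOSB, -0.24 to 0.02 (without shGREM1-2) for ATF4, -0.10 (without shControl-2) to 0.12 for TRIP6, at -0.06 without shGREM1-2, -0.30 to 0.17 (without shGREM1-1) for FN1, -0.06 (without shGREM1-1) to 0.25 for VIM and -1.42 to 0.00 (without shGREM1-1) for AC104695.3. Of 757 single-gene values over 51 genes, 668 kept direction and side of the threshold, 55 lost it, 15 gained it and 19 changed sign. With 2 libraries a group, the low counts of FOSB, BATF3 and GREM1 limit what could be detected.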

Other observations

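The 2 shControl libraries differed in FOS, with a mean of 86.2 CPM, by 1.97-fold. Of all kept genes, many of them less abundant, 5.90% differed at least as much. Among 4985 genes averaging 50 CPM or more, 3 differed at least that much between the control libraries, the others being SLC7A11 and PSAT1, singled out after their values were seen. SLC7A11, the cystine transporter, had 71.1 CPM in shControl-1 and 178 CPM in shControl-2, with 133 and 122 CPM in shGREM1. PSAT1, an enzyme of serine synthesis, had 41.6 and 89.3 CPM in the controls against 83.4 and 61.5 CPM in the shGREM1 pair. Both were lower in shControl-1, where FOS was higher.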
